A study of Mus musculus with 12 samples.

Results

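The difference between 2 mouse liver cell lines, AML12 and Hepa 1-6, in their response to prolactin was measured gene by gene. For each gene the change from control to prolactin in AML12 was subtracted from the same change in Hepa 1-6. The arrays were assigned by their titles, and 8 of the 12 arrays of the study entered this difference, 2 in each of 4 groups. The remaining 4 arrays came from cells of both lines given actinomycin D, which blocks transcription. They helped to estimate the spread and to decide which array features were tested, and their ratios are given for a few genes. AML12 derives from hepatocytes of a mouse with a transgene for TGF-alpha. Hepa 1-6 derives from a liver tumour, and the labels give hepatoma as the source of both. Cells of both lines were held overnight without serum or additives. They then either served as controls in that medium or received 200 ng/mL of sheep pituitary prolactin for 8 h. No time of harvest is given for the controls. If they were taken earlier, the effects of prolactin and of elapsed time cannot be told apart. Actinomycin D was given at 10 µg/mL for 8 h. Before the overnight withdrawal, AML12 alone was kept with dexamethasone, a synthetic glucocorticoid, and insulin. The line and its earlier medium cannot be told apart here. Each line stands for itself, so a difference between them is one between these 2 cultures and not between normal and malignant liver cells in general.

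Prolactin binds a cytokine receptor that carries the kinase JAK2, and JAK2 activates the transcription factors STAT5A and STAT5B. STAT5 induces the genes of its own inhibitors, the CIS and SOCS proteins, and these limit the signal. In liver the same kinase and STAT pair serves growth hormone, and STAT5 can also act together with the glucocorticoid receptor on shared genes.

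All values are log2 ratios of a sample over a common reference RNA pool of 11 mouse cell lines, and changes are differences between groups of 2 arrays with their standard error. They assume that the deposited ratios are log10 values. A gene is said to have passed when its limma p-value, after Benjamini-Hochberg adjustment over the 16549 genes tested, was under 0.05. The series design calls the arrays of a group biological replicates. Replicates correlated at 0.975 to 0.985 across genes. The hepatocyte markers Alb and Hnf4a were far above the reference in the controls of both lines, at 4.24 and 3.63 in AML12 and 4.30 and 3.46 in Hepa 1-6. Of the other hepatocyte markers tested, only Apoa2 was below the reference in a line, at -0.71 in AML12 and 3.03 in Hepa 1-6. Afp, a fetal liver and hepatoma marker, stood at -0.22 in AML12 and 5.61 in Hepa 1-6. The other markers of that kind tested, H19, Igf2 and Dlk1, were below the reference in both lines. The bile duct keratin gene Krt19 stood at 4.07 and -4.15. The bile duct markers Krt7 and Sox9 were also higher in AML12, but Epcam was lower there, at -4.83 and -2.48. The leukocyte marker Ptprc was at -5.50 and -8.07 and the fibroblast marker Col1a1 at -5.76 and -5.57. These arrays average whole cultures, in which fewer cells of a kind and less RNA per cell cannot be told apart.

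In AML12, prolactin raised the STAT5 feedback gene Cish and lowered some glucocorticoid-induced genes. Of 30 tested genes of the latter kind, 9 fell and 3 rose there. The responses of Cish and of 6 of those that fell differed from those of Hepa 1-6, while 3 genes rose in both lines. The response differed between lines for 20 of 16549 genes, or 0.121% of those tested, with 9 (0.0544%) responding higher in Hepa 1-6 and 11 (0.0665%) lower. At an unadjusted p under 0.05 there were 1810 genes. In AML12, 210 genes passed, which is 1.27% of those tested, with 119 (0.719%) higher and 91 (0.55%) lower. In Hepa 1-6, 6 genes passed, which is 0.0363%, with 5 (0.0302%) higher and 1 (0.00604%) lower. Of the 20 genes, 18 passed in AML12 and not in Hepa 1-6, 1 passed in Hepa 1-6 and not in AML12, and 1, Id3, passed in neither line. A set of 3 genes passed in both lines, all of them higher, and none of the 3 passed for a difference.

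**Figure D1:**
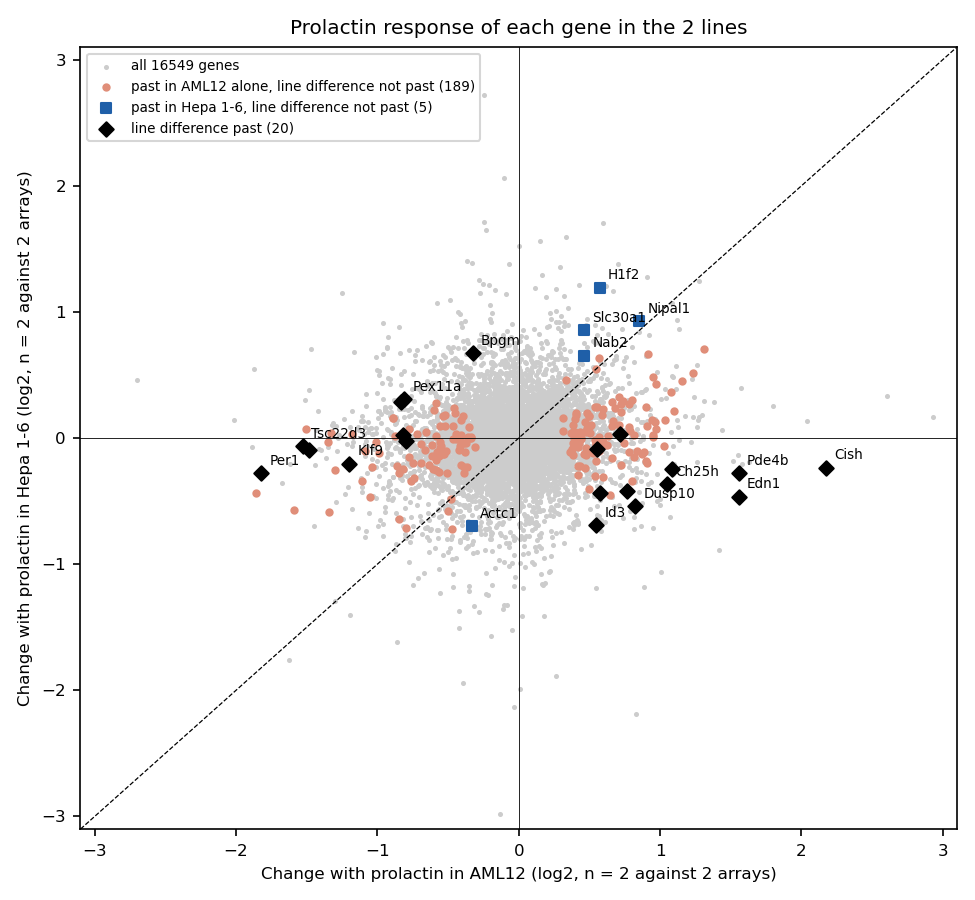
Change with prolactin in AML12 (horizontal axis, log2) against the change in Hepa 1-6 (vertical axis, log2), 1 point per gene for 16549 genes, with the diagonal marking equal changes. Black diamonds are the 20 genes whose response differed between lines. Red points are the 189 genes that passed in AML12 alone and did not pass for a difference. Blue squares are 5 of the 6 genes that passed in Hepa 1-6, the other being Bpgm among the diamonds.

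The 20 differences were large against the spread, from 0.64 to 2.41 in size. In AML12 the 2 prolactin arrays lay outside the 2 control arrays for 20 of the 20, and in Hepa 1-6 for 16. For 14 of them the line estimates had opposite signs, and for 6 the same sign. The genes were chosen by a test on these same arrays, which favours large differences, separate groups and opposite signs. These sizes and counts are therefore no separate evidence. The share of all genes with groups apart in this way was not counted, so a lack of overlap says little by itself, here and below. All 20 also differed between the lines' controls, as did 61.9% of all genes tested, and 7 were higher in the Hepa 1-6 controls. For the 10 genes measured by several array features, every feature had the sign of the gene. Cish, Pde4b and Tsc22d3 passed whichever of the 12 arrays was left out. Chst15, Edn1, Klf9, Per1 and Tmem140 missed the threshold when the first Hepa 1-6 prolactin array was dropped, and Bpgm for that array or the second AML12 control. Klf15 missed it when any AML12 control or Hepa 1-6 prolactin array was dropped, and Bcl6 for those or the first Hepa 1-6 control. The other 9 genes missed it in 8 to 12 of the 12 fits that left out 1 array. Dropping the first Hepa 1-6 prolactin array gave 3 calls, all 3 among the 20. Dropping the second AML12 control gave 10, of which 9 were among the 20, and dropping 1 of the Hepa 1-6 actinomycin D arrays gave 12, of which 11 were.

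**Figure D2:**
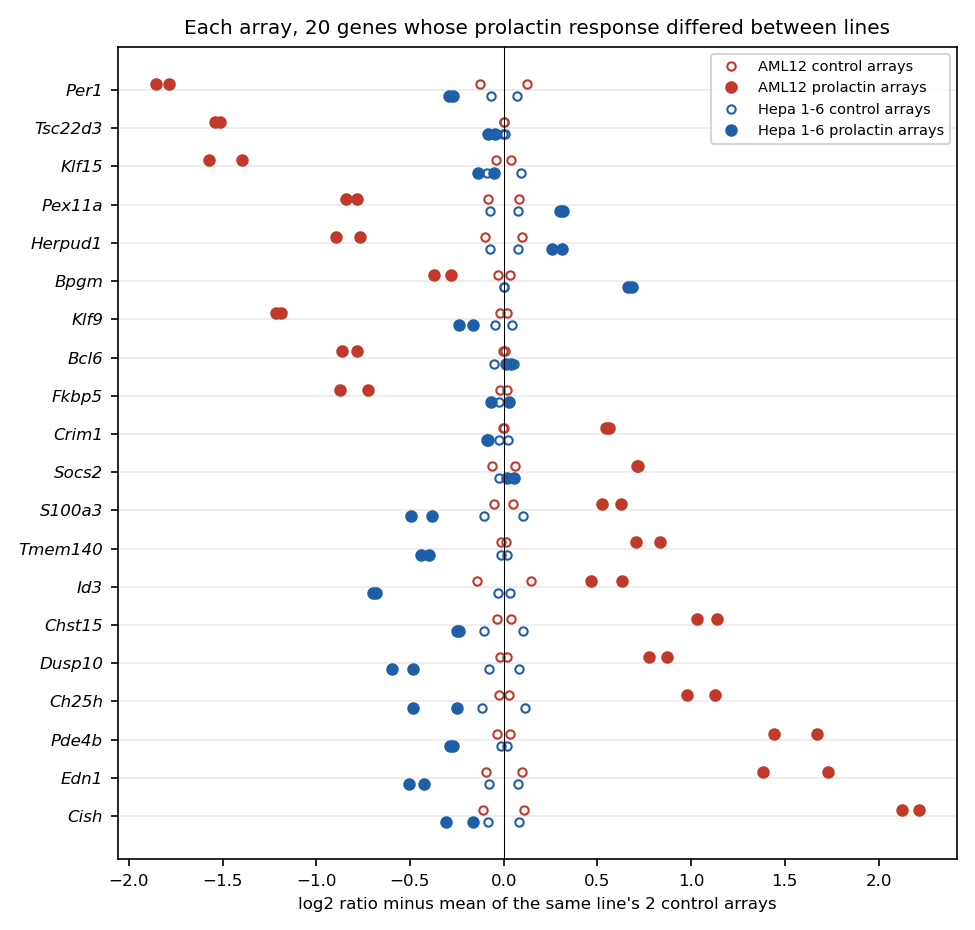
Log2 ratio of each array minus the mean of the 2 control arrays of its line, for the 20 genes whose response differed, with open circles for controls and filled circles for prolactin, AML12 in red and Hepa 1-6 in blue. The AML12 prolactin points leave 0 for all 20 genes, by 1.82 downwards for Per1 and 2.17 upwards for Cish on average, and those of Hepa 1-6 stay nearer 0 except for Bpgm and Id3.

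Of the genes of the CIS and SOCS feedback inhibitors, Cish and Socs2 rose in AML12 and responded lower in Hepa 1-6, and the other 6 tested passed neither in a line nor for the difference. Cish encodes CIS, which binds activated cytokine receptors and is a standard readout of STAT5. Its ratio was -0.26 and -0.48 on the AML12 controls and 1.76 and 1.85 with prolactin, a 4.50-fold rise. In Hepa 1-6 it was -0.99 and -0.83 on the controls and -1.08 and -1.22 with prolactin. The AML12 groups were far apart and the Hepa 1-6 prolactin arrays lay slightly below both controls. The Hepa 1-6 change of -0.24 had a 95% interval of -0.53 to 0.06, and the lines differed by -2.41 ± 0.18 (adjusted p = 0.0070).

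Socs2, the gene of another inhibitor of this pathway, followed the same order on a smaller scale. It was measured at -0.42 and -0.30 on the AML12 controls and at 0.35 on both prolactin arrays. The Hepa 1-6 ratios were -0.94 and -0.89 on controls and -0.90 and -0.86 with prolactin, so these groups overlapped. Its change was 0.71 in AML12 and 0.04 in Hepa 1-6, with an interval of -0.10 to 0.17 in the latter, and the difference was -0.68 ± 0.08 (adjusted p = 0.039). Leaving out any 1 of the 12 arrays took Socs2 past 0.05.

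Bcl6 encodes a transcriptional repressor that competes with STAT5 at shared sites. Here the AML12 controls read 0.37 and 0.38 and the prolactin arrays -0.41 and -0.49, a fall of 0.82. In Hepa 1-6 the controls read -1.63 and -1.52 and the prolactin arrays -1.54 and -1.56, inside the control range. The lines differed by 0.85 ± 0.09 (adjusted p = 0.016).

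These 3 were the members of a 20-gene list of STAT5 feedback genes and targets that differed between the lines. In AML12, 2 members rose (Cish and Socs2) and 3 fell (Bcl6, Bcl2l1 and Pim3), against 0 in Hepa 1-6. Bcl2l1, an apoptosis inhibitor gene, changed by -0.82 in AML12 and -0.24 in Hepa 1-6, and the kinase gene Pim3 by -0.85 and -0.28. Their differences of 0.57 ± 0.14 (adjusted p = 0.22) and 0.57 ± 0.15 (adjusted p = 0.24) did not pass. Socs1 and Socs3, whose products inhibit the JAK kinases, differed by 0.13 and 0.34, and neither passed in either line. The liver hormone gene Igf1 differed by -0.07. The list's median difference was 0.0187, beside 0.0189 for all genes.

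Of 23 listed receptor, JAK and STAT genes, 20 were tested, 0 differed in response, and the prolactin receptor gene was not analysed here. The ratios of the signalling genes do not show whether a gene was detected. Stat5a read -0.23 and -0.43 on AML12 controls and -0.85 and -0.81 on Hepa 1-6 controls. Stat5b read 0.15 and 0.12 on the former and 0.40 and 0.51 on the latter. Jak2 read 0.62 and 0.50 in AML12 and 0.91 and 1.83 in Hepa 1-6, where the 2 controls stood far from each other. Ghr, the gene of the growth hormone receptor, read -1.48 and -1.54 in AML12 and -3.24 and -3.18 in Hepa 1-6, the widest gap of these 4 genes. The adaptor gene Gab1 was the single member that passed in a line, with a rise of 0.53 in AML12 (adjusted p = 0.043), and its change in Hepa 1-6 was -0.12.

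Cish, Bcl6 and Klf9 moved in AML12 and carry the letters of a STAT site near their starts, and their promoter windows are printed here as examples. Pde4b, Per1 and Tsc22d3 also moved in AML12 and carry a match, but their windows are not printed. The windows run from 250 bases before to 50 bases after the start of a gene and come from RefSeq, build GRCm38.p6. Capitals mark matches to TTCNNNGAA, which reads the same on both strands. Cish lies on the plus strand at chr9:107296409-107296708, Bcl6 on the minus strand at chr16:23981234-23981533, and Klf9 on the plus strand at chr19:23140976-23141275.
Cish: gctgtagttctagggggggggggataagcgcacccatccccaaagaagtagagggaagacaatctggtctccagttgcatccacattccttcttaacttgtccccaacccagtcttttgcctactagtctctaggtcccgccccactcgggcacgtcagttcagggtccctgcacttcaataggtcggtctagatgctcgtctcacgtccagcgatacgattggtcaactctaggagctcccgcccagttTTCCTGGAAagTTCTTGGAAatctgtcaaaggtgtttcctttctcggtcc
Bcl6: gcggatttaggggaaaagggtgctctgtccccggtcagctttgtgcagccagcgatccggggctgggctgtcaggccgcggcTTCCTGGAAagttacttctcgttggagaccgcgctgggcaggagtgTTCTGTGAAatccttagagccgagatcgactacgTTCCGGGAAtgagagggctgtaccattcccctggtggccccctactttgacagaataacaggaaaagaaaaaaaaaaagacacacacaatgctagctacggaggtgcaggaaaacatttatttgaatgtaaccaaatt
Klf9: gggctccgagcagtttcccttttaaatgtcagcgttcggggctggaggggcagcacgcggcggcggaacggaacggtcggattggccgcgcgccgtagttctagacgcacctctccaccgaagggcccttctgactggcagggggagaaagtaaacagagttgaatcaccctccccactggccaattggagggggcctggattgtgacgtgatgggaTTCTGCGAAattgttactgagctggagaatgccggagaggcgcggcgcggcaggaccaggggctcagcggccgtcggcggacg
The Cish window holds 2 matches, which start at positions 1 and 12 counted from the first transcribed base. Bcl6 has 2 windows in the table, and the one printed holds 3 matches, which start at positions -168, -122 and -88. Klf9 has 1 match, starting at -33. Of 32851 windows of this length, 8.30% hold at least 1 match, 0.457% at least 2 and 0.0335% at least 3. Among the 20 genes whose response differed, 19 had a window, and 6 of these had a match, which were Bcl6, Cish, Klf9, Pde4b, Per1 and Tsc22d3. By gene the share in the whole table was 9.55%, but these 19 genes have 30 windows between them, so the shares are not like for like. By window, 7 of these 30 had a match, beside 8.30% of all windows. Windows of 1 gene may overlap, and no test was run. The glucocorticoid response element, searched as GNACA and TGTNC 3 bases apart on either strand, was in 0.475% of all windows and in 0 of these 19 genes. By gene its share in the whole table was 0.537%, so 0 of 19 is the usual outcome and says little. Sites outside these windows were not searched. A match is a run of letters and does not show that a factor binds there.

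Edn1 and Pde4b also rose in AML12 and responded lower in Hepa 1-6. Edn1 encodes endothelin 1, a vasoconstrictor peptide. The AML12 controls read -0.40 and -0.20 and the prolactin arrays 1.43 and 1.08, a 2.94-fold rise. In Hepa 1-6, which had more Edn1 to begin with, the controls read 1.65 and 1.81 and the prolactin arrays 1.23 and 1.31. The lines differed in their controls and stood close to each other with prolactin. The Hepa 1-6 change of -0.47 had an interval of -0.76 to -0.17, and the difference was -2.02 ± 0.18 (adjusted p = 0.0083).

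Pde4b encodes a phosphodiesterase that degrades cyclic AMP. Its ratio rose from -3.42 and -3.49 on AML12 controls to -1.79 and -2.02 with prolactin, again 2.94-fold. On Hepa 1-6 controls it was -1.02 and -1.05, and with prolactin -1.30 and -1.32. Prolactin brought AML12 nearer to the level of Hepa 1-6, where the interval of the change, -0.48 to -0.08, lay below 0. The difference of -1.83 ± 0.12 (adjusted p = 0.0042) was of one sign on all 3 features. With exact zeros kept as a ratio of 1 it was -0.93 and did not pass.

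Dusp10 encodes a phosphatase that inactivates the stress kinases p38 and JNK. On AML12 arrays it went from 0.38 and 0.34 to 1.23 and 1.13, and on Hepa 1-6 arrays from -0.62 and -0.47 to -1.14 and -1.03. Neither pair of groups overlapped, and the directions were opposite. The difference was -1.36 ± 0.15 (adjusted p = 0.025). It was the 1 gene of 22 tested in the list of MAP kinase feedback genes that differed. Dusp1, the founding member of this phosphatase family, was lower with prolactin in both lines, by a change of -0.48 in AML12 (adjusted p = 0.047) and -0.72 in Hepa 1-6 (adjusted p = 0.060). Its difference of -0.25 did not pass, and its AML12 call was lost without any 1 array.

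Id3 encodes an inhibitor of helix-loop-helix transcription factors that BMP signalling induces. The AML12 ratios were -2.13 and -2.42 on controls and -1.81 and -1.64 with prolactin. Those of Hepa 1-6 were -0.41 and -0.48 on controls and -1.14 and -1.13 with prolactin. The groups did not overlap in either line, and each line's own change missed the threshold, at 0.55 in AML12 (adjusted p = 0.059) and -0.69 in Hepa 1-6 (adjusted p = 0.14). The difference of -1.24 ± 0.15 passed (adjusted p = 0.039), and it missed in 11 of the 12 fits that left out 1 array. Id1, a gene of the same family, behaved otherwise, with a fall of 0.85 in AML12 (adjusted p = 0.027) and a change of -0.64 in Hepa 1-6 (adjusted p = 0.20), and the lines differed by 0.21 ± 0.18.

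The other 5 genes with a lower response in Hepa 1-6 had a rise in AML12 between 0.55 and 1.08. Chst15, which encodes a sulfotransferase of chondroitin sulfate, went from -0.01 and 0.06 to 1.06 and 1.16 in AML12 and from 1.92 and 1.71 to 1.56 and 1.57 in Hepa 1-6. Its difference was -1.33 ± 0.12 (adjusted p = 0.0083). Ch25h encodes cholesterol 25-hydroxylase, an interferon-inducible enzyme. It rose from -2.44 and -2.39 to -1.44 and -1.29 in AML12, and in Hepa 1-6 it read -4.15 and -4.38 on controls and -4.52 and -4.75 with prolactin. At those low ratios the Hepa 1-6 value can lie near the detection floor, and the difference of -1.42 ± 0.18 (adjusted p = 0.044) missed the threshold without any 1 of the 12 arrays.

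Tmem140, which encodes a membrane protein, rose from 2.02 and 2.05 to 2.87 and 2.74 in AML12 and read 1.22 and 1.25, then 0.83 and 0.79, in Hepa 1-6. The difference was -1.19 ± 0.10 (adjusted p = 0.0083), and the Hepa 1-6 interval of -0.58 to -0.26 lay below 0. S100a3 encodes a calcium-binding protein of the S100 family. On AML12 arrays it read 0.96 and 1.06, then 1.64 and 1.54, and on Hepa 1-6 arrays 1.65 and 1.44, then 1.05 and 1.16. Prolactin thus brought AML12 to about the level of the Hepa 1-6 controls, while the difference was -1.01 ± 0.13 (adjusted p = 0.044). Crim1 encodes a transmembrane protein that binds BMPs. It read -0.40 and -0.41, then 0.14 and 0.16, in AML12, against 0.53 and 0.48, then 0.42 on both prolactin arrays, in Hepa 1-6. Its difference of -0.64 ± 0.08 (adjusted p = 0.037) was the smallest of the 20, and it missed the threshold without any 1 array.

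Genes known to be induced by glucocorticoids were 6 of the 8 genes that fell in AML12 and responded higher in Hepa 1-6. Of 30 tested members of a list of such genes, 6 differed, all with a higher response in Hepa 1-6, and these were Per1, Tsc22d3, Klf15, Klf9, Bcl6 and Fkbp5. The list was chosen with these results known, so its count is no separate evidence. In AML12, 9 members fell and 3 rose, and in Hepa 1-6 none passed. The members that rose in AML12 were Pdk4, the gene of a pyruvate dehydrogenase kinase, by 1.04, Tat, the gene of tyrosine aminotransferase, by 0.90, and Angptl4, the gene of a lipoprotein lipase inhibitor, by 0.66. The list did not move as a whole, with a median difference of -0.08 and 14 of 30 members above 0, and the sign of that median changed in 4 of 22 alternatives.

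Per1 encodes a repressor of the circadian clock. It read -0.24 and 0.01 on AML12 controls and -1.97 and -1.90 with prolactin, a 3.53-fold fall. In Hepa 1-6 it read -0.69 and -0.83 on controls and -1.05 and -1.03 with prolactin. Both lines had lower ratios with prolactin and no overlap, but by -1.82 in AML12 and by -0.28 in Hepa 1-6, with an interval of -0.50 to -0.06 in the latter. The difference was 1.54 ± 0.14 (adjusted p = 0.0083). Nr1d2, another clock gene, rose in AML12 by 0.68 and its change in Hepa 1-6 was 0.24, with a difference that did not pass.

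Tsc22d3 encodes GILZ, a leucine zipper protein that carries anti-inflammatory effects of glucocorticoids. Both AML12 controls read 2.01, and prolactin gave 0.49 and 0.47, a 2.88-fold fall. In Hepa 1-6 the controls read -1.36 and -1.35 and the prolactin arrays -1.40 and -1.44. The change there was -0.06 with an interval of -0.19 to 0.06, and the difference of 1.46 ± 0.08 had the lowest adjusted p of the 16549 genes (adjusted p = 0.0012).

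The Krüppel-like factor genes Klf15 and Klf9 encode transcription factors, and Klf15 controls amino acid and glucose metabolism in liver. Klf15 fell from 3.81 and 3.73 to 2.37 and 2.20 in AML12, and in Hepa 1-6, where it was low, it read -1.21 and -1.03, then -1.26 and -1.18. Its difference was 1.39 ± 0.13 (adjusted p = 0.011). Klf9 fell from 1.56 and 1.60 to 0.37 and 0.39 in AML12, and the Hepa 1-6 ratios were 0.45 and 0.36, then 0.24 and 0.17. After prolactin the Klf9 ratios of AML12 were as low as those of the Hepa 1-6 controls. The Hepa 1-6 interval of -0.34 to -0.07 lay below 0, so Klf9 and Per1 were the 2 genes of the 18 with an AML12 change whose Hepa 1-6 interval lay on the same side. The Klf9 difference was 1.00 ± 0.08 (adjusted p = 0.0083).

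Fkbp5 encodes a cochaperone that restrains the glucocorticoid receptor. It read 2.18 and 2.22, then 1.48 and 1.33, in AML12, and 0.90 and 0.85, then 0.81 and 0.90, in Hepa 1-6. The AML12 groups were apart and the Hepa 1-6 groups overlapped. The difference of 0.78 ± 0.10 (adjusted p = 0.041) missed the threshold in 11 of the 12 fits that left out 1 array, and with the highest feature it was 0.46 (adjusted p = 0.38).

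The AML12 actinomycin D arrays give ratios for these genes when transcription is blocked. For Per1 they read -1.72 and -1.87, for Tsc22d3 0.45 and 0.35, and for Klf15 2.31 and 2.17. For Klf9 they read 0.28 and 0.31, and for Fkbp5 1.46 and 1.50. In each of these 5 genes the AML12 ratios with prolactin were close to those with actinomycin D. How often this holds over all genes was not counted, so the closeness is not shown to be particular to these genes. These normalized ratios do not measure RNA per cell, so close ratios do not show equal amounts of RNA. The comparison is not given for Herpud1 and Pex11a, which also fell in AML12. In a contrast added after the values were seen, prolactin minus actinomycin D had intervals of -0.36 to 0.08 for Per1, -0.04 to 0.21 for Tsc22d3, -0.17 to 0.26 for Klf15, -0.05 to 0.22 for Klf9 and -0.24 to 0.07 for Fkbp5. Bcl6 was different, at -2.01 and -2.05 with actinomycin D, which was 1.58 below prolactin. The part of the dexamethasone in the earlier AML12 medium was not tested.

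Herpud1 and Pex11a also fell in AML12, and their Hepa 1-6 intervals lay above 0. Herpud1 encodes a protein of endoplasmic reticulum-associated degradation. It read 0.70 and 0.51, then -0.16 and -0.29, in AML12, and -1.63 and -1.48, then -1.25 and -1.30, in Hepa 1-6. The difference was 1.11 ± 0.13 (adjusted p = 0.037), and it missed the threshold without any 1 of the 12 arrays. Herpud1 was the 1 gene of 37 in the stress response list that differed. Chac1 and Ddit4, stress-induced genes of that list, fell in AML12 by 0.63 and 0.72, and their Hepa 1-6 changes were -0.21 and 0.03. Pex11a encodes a protein of peroxisome division that PPAR-alpha induces. It read 1.08 and 0.92, then 0.22 and 0.16, in AML12, and -0.75 and -0.60, then -0.36 and -0.38, in Hepa 1-6. The groups lay apart in both lines and in opposite directions, and the difference was 1.12 ± 0.12 (adjusted p = 0.020) with the same sign on all 10 features.

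A single gene, Bpgm, passed in Hepa 1-6 and differed from AML12. It encodes bisphosphoglycerate mutase, which makes the regulator of oxygen release in red cells. In Hepa 1-6 both controls read 1.76 and the prolactin arrays 2.42 and 2.44, a rise of 0.67 (adjusted p = 0.031). In AML12 the ratios were 1.18 and 1.25, then 0.94 and 0.85, a change of -0.33 that missed the threshold (adjusted p = 0.057). The lines differed by 1.00 ± 0.09 (adjusted p = 0.0083). The call for the difference rested on the 2 arrays named above, whereas the Hepa 1-6 call was lost in 10 of the 12 fits that left out 1 array.

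Only 3 genes passed in both lines, and all 3 rose. Slc30a1 encodes ZnT1, the zinc exporter of the plasma membrane. Its ratio went from 0.58 and 0.70 to 1.11 and 1.08 in AML12 and from -0.28 and -0.22 to 0.63 and 0.59 in Hepa 1-6. Prolactin brought the Hepa 1-6 ratio to that of the AML12 controls. The rise was 0.46 in AML12 (adjusted p = 0.021) and 0.86 in Hepa 1-6 (adjusted p = 0.015), and the difference of 0.40 ± 0.09 did not pass (adjusted p = 0.18), with an interval of 0.19 to 0.60.

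Nipal1, the gene of a putative magnesium transporter, had the most even response. It went from -0.07 and 0.08 to 0.96 and 0.75 in AML12 and from -0.88 and -0.97 to -0.04 and 0.04 in Hepa 1-6. The rises were 0.85 (adjusted p = 0.015) and 0.93 (adjusted p = 0.043), or 1.80-fold and 1.90-fold. Their difference was 0.08 ± 0.14 with an interval of -0.24 to 0.39. Nab2 encodes a corepressor of EGR transcription factors and is itself an early response gene. It read -1.49 and -1.45, then -1.01 on both prolactin arrays, in AML12, and -0.27 and -0.36, then 0.39 and 0.28, in Hepa 1-6. The rises of 0.46 (adjusted p = 0.030) and 0.65 (adjusted p = 0.045) differed by 0.19 ± 0.10, with an interval of -0.04 to 0.42. A difference that misses the threshold does not show equal responses, and the 3 intervals give the sizes that remain possible.

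Another 2 genes passed in Hepa 1-6 and narrowly missed in AML12. H1f2, a linker histone gene, rose in Hepa 1-6 from -1.63 and -1.55 to -0.38 and -0.43, or 2.29-fold. The AML12 ratios were 0.48 and 0.58 on controls and 1.22 and 0.98 with prolactin, a change of 0.57 (adjusted p = 0.055). Actc1, the cardiac actin gene, fell in Hepa 1-6 from -2.14 and -2.20 to -2.83 and -2.91 (adjusted p = 0.043). In AML12 it read -2.69 and -2.66, then -2.97 and -3.06, a change of -0.33 (adjusted p = 0.072). In both genes the 2 lines moved the same way without overlap between groups, and the differences of 0.62 (adjusted p = 0.21) and -0.37 (adjusted p = 0.26) did not pass. Of the 5 genes that rose in Hepa 1-6, 4 had an AML12 interval above 0 and 1, Bpgm, below 0. Over all genes, 7.84% had an AML12 interval above 0 and 9.06% below it, but a gene has 1 standard error for both lines, so genes that passed in one line tend to have narrow intervals in the other. The 6 Hepa 1-6 calls depended on single arrays. Counting any gene, the Hepa 1-6 calls numbered 1 when the first Hepa 1-6 prolactin array or 1 of the AML12 controls was dropped, and 2 when 1 AML12 prolactin or actinomycin D array was. None of the 6 passed without the first Hepa 1-6 prolactin array. Dropping a Hepa 1-6 control gave 3 for the first and 13 for the second, and dropping the second Hepa 1-6 prolactin array gave 12. The count of 3 shared genes became 0 when any prolactin array, any AML12 control or the first Hepa 1-6 control was dropped, and 1 for the second.

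**Figure D3:**
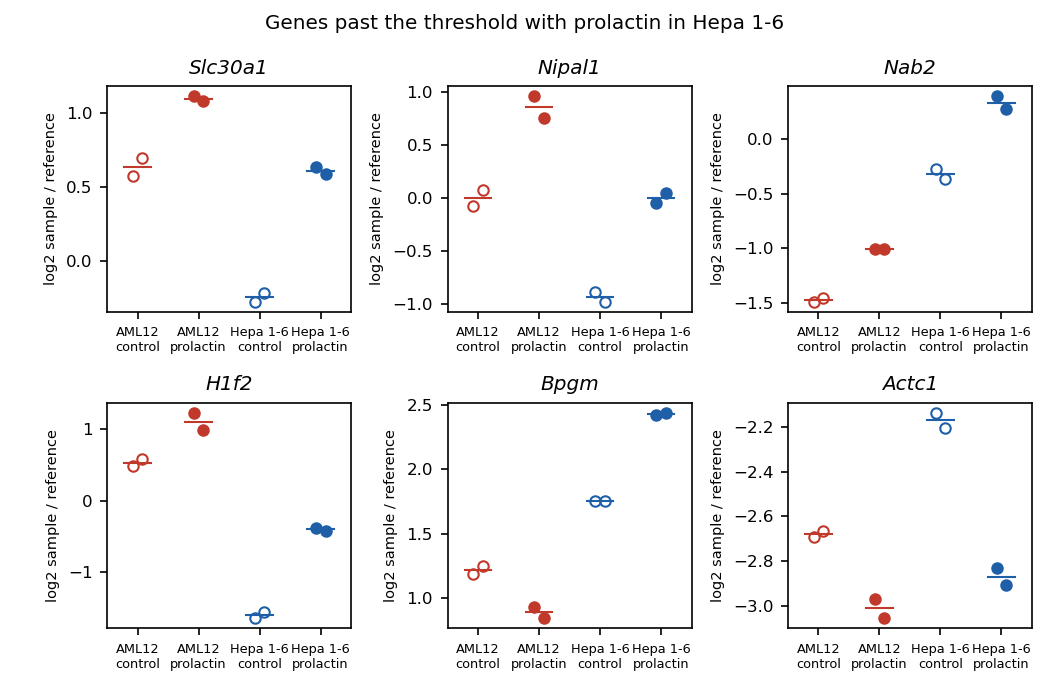
Log2 ratio of sample over reference on each array for the 6 genes that passed in Hepa 1-6, with open circles for controls, filled circles for prolactin and a bar at the mean of 2 arrays. Slc30a1, Nipal1, Nab2 and H1f2 are higher with prolactin in both lines, Actc1 lower in both, and Bpgm higher in Hepa 1-6 and lower in AML12.

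The larger set of AML12 genes was then followed in Hepa 1-6. The Hepa 1-6 arrays do not enter the AML12 change, but they do enter the spread estimate and the filter on ratios, and so had a part in choosing the set. The 119 genes that rose in AML12 had a median AML12 change of 0.57, which their choice enlarges, and a median Hepa 1-6 change of 0.0359, with quartiles of -0.107 and 0.179. In Hepa 1-6, 57.1% of them were above 0, beside 48.5% of all genes. Their Hepa 1-6 interval lay above 0 for 23.5%, beside 3.80% of all genes, and below 0 for 15.1%, beside 4.41%. The shares on both sides are raised in part by the choice of genes, since passing in AML12 favours a small standard error and the same standard error sets the Hepa 1-6 interval. For 76 of the 119, the whole Hepa 1-6 interval lay below 50% of the AML12 change. The median Hepa 1-6 change turned below 0 when the second AML12 control was dropped, at -0.0598, when the first AML12 prolactin array was dropped, at -0.0382, and with the replicate block, at -0.00332.

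The 91 genes that fell in AML12 had a median change of -0.59 there and -0.0681 in Hepa 1-6. Of these, 65.9% were below 0 in Hepa 1-6, beside 51.4% of all genes. Their Hepa 1-6 interval lay below 0 for 25.3%, beside 4.41%, and above 0 for 9.89%, beside 3.80%. For 52 of the 91 the whole interval fell short of 50% of the AML12 change. Dropping the first or second Hepa 1-6 prolactin array gave a median of -0.138 or -0.139, dropping the first AML12 control -0.0349, and dropping 1 Hepa 1-6 actinomycin D array -0.0359. The count of 210 itself was 69 or 30 when an AML12 control was dropped, 77 for the first AML12 prolactin array, 80 for a Hepa 1-6 control, 57 for a Hepa 1-6 prolactin array and 115 for a Hepa 1-6 actinomycin D array. Of 61 genes named here that passed in AML12, 43 did not pass for a line difference. Of these 43, only Fbxo32 and Slc5a3 kept their AML12 call whichever array was left out.

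**Figure D4:**
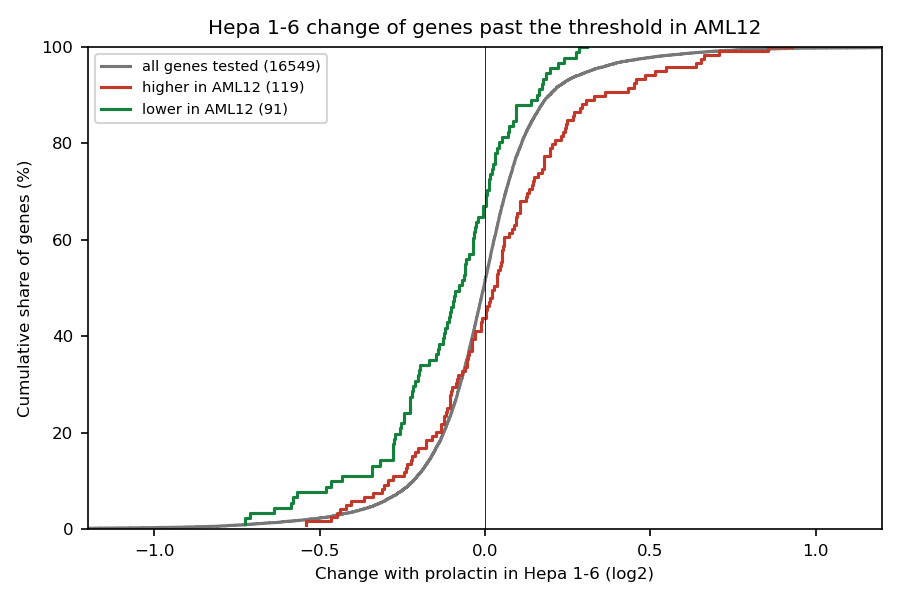
Cumulative share of genes (vertical axis, percent) by their change with prolactin in Hepa 1-6 (horizontal axis, log2, drawn from -1.2 to 1.2), for 16549 genes in grey, the 119 that rose in AML12 in red and the 91 that fell in green. At 0 the grey curve stands near 51.4%, the green curve at 65.9% and the red curve below both, and the red and green curves spread more widely than the grey one.

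Of the 210 AML12 genes, 189 passed neither in Hepa 1-6 nor for a difference, so the data do not assign them to 1 line or to both. The largest rises among them were those of Cxcl10, Npy5r, Lmo7, Fbxo32 and Gbp3. Cxcl10, an interferon-induced chemokine gene, read -0.64 and -0.91, then 0.14 and 0.93, in AML12, and 2.00 and 2.08, then 2.73 and 2.77, in Hepa 1-6. It was higher with prolactin without overlap in both, by 1.31 in AML12 (adjusted p = 0.042) and by 0.71 in Hepa 1-6 (adjusted p = 0.48). Lmo7, which encodes a LIM domain protein, had changes of 1.16 and 0.45. Fbxo32, a ubiquitin ligase gene, had 1.10 and 0.21 and lay just outside the threshold for a difference, at -0.89 ± 0.12 (adjusted p = 0.051). Npy5r and Gbp3 had ratios of -6.34 and -6.41 and of -7.44 and -7.54 on the AML12 controls. At those low ratios the values can lie near the detection floor, so the size of their rises is uncertain.

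The largest falls of this kind were those of Gcnt3, Akr1c20, Wnt5a, Armc3 and Klhl41. Gcnt3, which encodes a glycosyltransferase of mucins, read 1.12 and 1.11, then -0.35 and -1.14, in AML12, and -1.40 and -1.32, then -1.87 and -1.71, in Hepa 1-6. Its changes of -1.86 and -0.43 differed by 1.43 ± 0.44 (adjusted p = 0.31). Wnt5a, the gene of a secreted Wnt ligand, had changes of -1.50 and 0.07 and a difference of 1.57 ± 0.34 (adjusted p = 0.17). These differences are about as large as that of Per1, but their standard errors of 0.44 and 0.34 are larger than its 0.14. Akr1c20, an aldo-keto reductase gene, changed by -1.59 and -0.57, Klhl41 by -1.30 and -0.25, and Armc3 by -1.33 and 0.04. Several genes shared the adjusted p of 0.051 just outside the threshold. Apart from Fbxo32, those of them with the lowest unadjusted p were Slc5a3, the gene of a myo-inositol transporter, at -0.81, Slfn2, a Schlafen family gene, at -0.83, Mab21l4 at -0.60 and Idi1 at 0.56. Slfn2 and Mab21l4 were higher with prolactin in AML12 and lower in Hepa 1-6 without overlap, and neither passed in either line. Myc, a transcription factor gene that drives cell growth, differed by -0.46 ± 0.14 (adjusted p = 0.31), from 0.41 in AML12 and -0.06 in Hepa 1-6.

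Gene lists were then set side by side in both lines. They were chosen with earlier results known and are described by counts and medians only. For scale, the median over all genes was 0.019 for the difference, with 54.0% of genes above 0, -0.026 for AML12, with 44.0% above 0, and -0.0042 for Hepa 1-6, with 48.5% above 0.

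Cholesterol and fatty acid synthesis genes were lower with prolactin in AML12 and close to 0 or above in Hepa 1-6. Of 36 tested, 6 fell in AML12 and 0 passed in Hepa 1-6 or for a difference. Above 0 were 5 of 36 in AML12, 28 in Hepa 1-6 and 30 for the difference. The median change on single arrays was -0.223 and -0.268 with prolactin in AML12, and 0.0599 and 0.0552 in Hepa 1-6. The median difference was 0.30, and it stayed between 0.261 and 0.341 in the 22 alternatives. Msmo1, a sterol demethylation enzyme gene, read 1.23 and 1.24, then 0.70 and 0.56, in AML12, and 1.46 and 1.48, then 1.69 and 1.70, in Hepa 1-6. Its difference of 0.82 ± 0.11 lay just outside (adjusted p = 0.051). Fdps, the farnesyl diphosphate synthase gene, read 1.49 and 1.57, then 1.16 and 1.10, against 1.27 and 1.32, then 1.45 and 1.49. Both genes were apart in both lines and in opposite directions. Idi1, which acts 1 step before Fdps, had changes of -0.26 and 0.30. Aacs and Sc5d, which encode acetoacetyl-CoA synthetase and a sterol desaturase, fell in AML12 by 0.56 and 0.36 and had Hepa 1-6 changes of -0.03 and 0.01. Srebf2 and Srebf1, which encode the transcription factors that control these enzymes, differed by -0.04 and -0.16.

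Targets of YAP, the growth-control coactivator of the Hippo pathway, had the median difference farthest from 0 of the 25 lists, at -0.38. In AML12, 16 of 20 were above 0, with 4 that rose and 1 that fell, and in Hepa 1-6, 3 of 20 were above 0 and none passed. Single prolactin arrays had medians of 0.168 and 0.351 in AML12 and -0.174 and -0.189 in Hepa 1-6. The 2 members that differed were Edn1 and Crim1. Ccn1, the gene of a matricellular protein and a standard YAP target, read -2.29 and -2.35, then -1.75 and -1.29, in AML12, and -1.81 and -1.99, then -2.25 and -2.23, in Hepa 1-6. Its difference of -1.14 ± 0.19 did not pass (adjusted p = 0.094). Ccn2, its close relative and the other standard target, fell in AML12 by 1.05, from 2.62 and 2.59 to 1.41 and 1.70, and its Hepa 1-6 change was -0.47. The 2 best-known members thus went opposite ways in AML12.

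Immediate-early genes had a median difference of -0.26, with 12 of 39 above 0. In AML12, 30 of 39 were above 0, and 3 rose, among them Ier3, a survival gene, by 0.95 and the nuclear receptor gene Nr4a2 by 0.60. The kinase gene Plk3 fell by 0.51. In Hepa 1-6, 13 of 39 were above 0 and Nab2 was the 1 that rose. The array medians were 0.150 and 0.292 in AML12 and -0.0399 and -0.0608 in Hepa 1-6, so the AML12 arrays differed from each other by more than those of Hepa 1-6. Ier3 had a Hepa 1-6 change of 0.14 and Nr4a2 of 0.23, and none of the 39 differed between lines.

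Replication-dependent histone genes gave a mixed picture. Of 28 tested, 4 rose in AML12, all of them H4 genes, and 1, the linker histone gene H1f2, in Hepa 1-6. H4c14 read -0.92 and -1.24, then -0.13 and -0.22, in AML12, and -2.77 and -2.87, then -2.95 and -3.09, in Hepa 1-6. The difference was -1.11 ± 0.15 (adjusted p = 0.051), and that of H4c6 was -1.08. These H4 genes are near-identical copies and had near-identical values, so their features may share signal and they cannot be counted as separate genes with certainty. Their line difference was opposite in sign to that of H1f2, at 0.62, although H1f2 was higher with prolactin in AML12 too. The split was not one of histone class. The linker genes H1f1, H1f3, H1f4 and H1f5 differed by 0.09, -0.37, -0.78 and -0.68, and the H4 gene H4c9 by 0.23. None of these passed for the difference. The list's array medians were 0.232 and 0.0615 in AML12 and -0.0635 and -0.121 in Hepa 1-6.

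Lists of other functions had at most 1 gene that differed. Pde4b was the 1 of 25 cyclic AMP genes, Id3 the 1 of 25 BMP and ID genes, Ch25h the 1 of 39 interferon genes, Pex11a the 1 of 31 peroxisome and PPAR-alpha genes, Per1 the 1 of 19 clock genes and Edn1 the 1 of 13 vasoactive genes. Of 36 zinc and magnesium transport genes 0 differed, although the list holds Slc30a1 and Nipal1. In that list Slc39a14, which encodes a zinc importer, fell in AML12 by 0.44 and had a Hepa 1-6 change of 0.03. The metallothionein gene Mt2, a classic zinc-induced gene, had changes of 0.67 in AML12 (adjusted p = 0.089) and 0.62 in Hepa 1-6 (adjusted p = 0.36). Mt1, another metallothionein gene, had changes of 0.56 (adjusted p = 0.11) and 0.25 (adjusted p = 0.71). Of 51 cell cycle genes 0 differed, and Cdkn1b, a kinase inhibitor gene, and Kif11, a mitotic motor gene, rose in AML12 by 0.60 and 0.43. Of 24 chemokine and cytokine genes 0 differed, and Kitl, which encodes stem cell factor, fell in AML12 by 0.52 and had a Hepa 1-6 change of 0.18. Of 28 plasma protein genes, the hallmark products of hepatocytes, 0 passed in either line or for a difference.

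**Figure D5:**
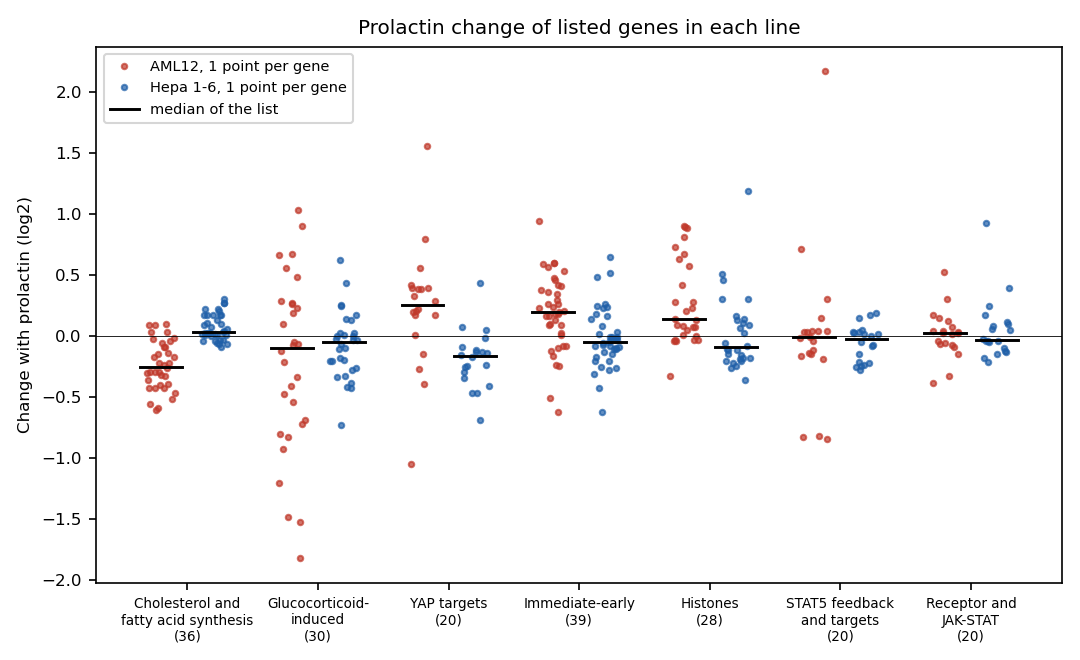
Change with prolactin (vertical axis, log2) of each tested gene of 7 lists, AML12 in red and Hepa 1-6 in blue, with a bar at the list's median and the number of genes in brackets. Cholesterol and fatty acid synthesis genes have a median of -0.249 in AML12 and 0.0366 in Hepa 1-6, YAP targets 0.258 and -0.161, and immediate-early genes 0.196 and -0.0465.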

How the data were processed

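Gene expression was measured on 2-colour Agilent mouse arrays, with the sample in Cy5 and Universal Mouse Reference RNA in Cy3 on every array and no dye swap, per the labels. The values deposited by the authors are normalized ratios, read here as log10 ratios of sample over reference, at 45018 features on each array, and the submitters' processing notes name Agilent Feature Extraction. The log base is not given in the sources used here. Base 10 was assumed (values from -3.12 to 2.94), and a base of 2 would shrink every change by 3.32 with the same signs and p-values. Exact zeros, 12.7% of the deposited values and 4737 to 7621 per array, were taken as features with no ratio, and no background or saturation marks were used.

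Values were converted to log2. The platform annotation gave 1 symbol to 33653 features, several to 56 and none to 11309. The 28519 with 1 symbol and a ratio on all 12 arrays were averaged per gene, which gave 16549 genes. A mean per group was fitted over the 12 arrays with limma 3.58.1 in R 4.3.3 (two-sided, 6 residual degrees of freedom and 1.84 from the prior), with Benjamini-Hochberg adjustment over these genes. Intervals are 95% limma intervals of single genes, not adjusted. The 2 single-line responses share no array, but share the spread estimate and the reference, and the line difference is built from both. The number of arrays limits the precision. The test was checked on simulated data with independent normal noise. It called a difference for 10 of 16349 genes without an effect. Of genes given a change in AML12 alone, it called 19.4% at a size of 0.5, 70.1% at 1 and 89.4% at 2.

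The members, the 25 gene lists and the tests were chosen with earlier results of these data known. Genes were named by rule. Named were all that passed for the difference, in Hepa 1-6 or in both lines, and the 5 genes just outside the threshold. Of genes that passed in AML12 and not for the difference, the 5 largest rises and falls were named. Up to 4 per list, all receptor, JAK-STAT and STAT5 feedback genes, and Myc were also named. Not every named gene is printed. Outside that rule are Srebf1, Srebf2, Mt1, Mt2, H1f1, H1f3, H1f4, H1f5 and H4c9, chosen after their values were seen.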

Additional observations from a re-analysis of the deposited data

Results flagged for a closer look

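The response to prolactin differed between the lines, by the limma test of the difference itself, for 20 genes. The values are the Hepa 1-6 change minus the AML12 change on the log2 scale. Lower responses in Hepa 1-6 were those of Cish at -2.41, Edn1 at -2.02, Pde4b at -1.83, Ch25h at -1.42, Dusp10 at -1.36, Chst15 at -1.33, Id3 at -1.24, Tmem140 at -1.19, S100a3 at -1.01, Socs2 at -0.68 and Crim1 at -0.64. Higher responses were those of Per1 at 1.54, Tsc22d3 at 1.46, Klf15 at 1.39, Pex11a at 1.12, Herpud1 at 1.11, Bpgm at 1.00, Klf9 at 1.00, Bcl6 at 0.85 and Fkbp5 at 0.78. Groups of 2 arrays are too small to look for single arrays that stand apart from the others.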

How the results depend on the processing

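The sign of the difference was kept for all 20 genes in every alternative run (435 of 435 values), while passing the threshold was less stable. Cish and Tsc22d3 passed under all 22 alternatives, and Pde4b under 20 of 21. The count of 20 was 8 (5 higher and 3 lower in Hepa 1-6) with ratios required on 8 arrays and a fit on those, 11 (7 and 4) in a fit on the 8 arrays of the comparison, 47 (20 and 27) with exact zeros kept as a ratio of 1, 31 (14 and 17) without the lowest 20% of mean ratios, 37 (16 and 21) with a prior trend and 47 (28 and 19) with each feature by itself. Of the 20, 7 passed in the fit on 8 arrays and 20 with a prior trend. Median centring gave 23 (9 and 14), with all 20 among them, and quantile normalization 26 (11 and 15), with 18 of them. The AML12 count of 210 was 71 with ratios on 8 arrays, 74 in the fit on 8 arrays, 780 with each feature and 29 at a minimum fold of 2. The Hepa 1-6 count of 6 was 1 at that fold. By limma it was 0 with ratios on 8 arrays (1504 at an unadjusted p under 0.05), 0 with the highest feature per gene (1280) and 0 in the fit on 8 arrays (1498), and the count of shared genes was 0 in each of these. Genes that passed in exactly 1 line and for the difference were 19, and 7 with ratios on 8 arrays, 9 in the fit on 8 arrays, 41 with exact zeros kept and 31 with a prior trend. The median Hepa 1-6 change of genes that rose in AML12 was 0.0905 in the fit on 8 arrays. For those that fell it was -0.0382 after quantile normalization, -0.0349 with ratios on 8 arrays, -0.0354 with zeros kept, -0.0346 without the lowest ratios and -0.0324 in the fit on 8 arrays. The cause of these shifts was not tested, except that fits on 8 arrays have fewer samples. Without the lowest ratios, the leukocyte and the stellate and fibroblast marker lists had no tested member and gave no median. Following the median Hepa 1-6 change through the alternatives was added after seeing the data.

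With 1 array left out at a time, the count of differing genes ran from 3 to 25, that of AML12 from 30 to 183, that of Hepa 1-6 from 1 to 13, that of shared genes from 0 to 2 and that of genes in exactly 1 line from 3 to 24. The medians ran from -0.0598 to 0.0739 for genes that rose in AML12 and from -0.139 to -0.0349 for those that fell. A group left with 1 array was assumed to vary like the others.

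The replicate numbers did not pair the samples: same-numbered arrays deviated together with correlations of -0.0476 to 0.159. With the replicate number as a block, 10 genes differed (5 and 5), all 10 among the 20, 100 passed in AML12, 0 in Hepa 1-6 (1296 at an unadjusted p under 0.05) and 0 in both, and 9 passed in exactly 1 line and for the difference.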
